A study of Mus musculus with 6 samples.

Results

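The collagens, laminins and other extracellular matrix genes were examined in sorted motor neurons of the mouse embryo. Members were all array probes whose gene symbol is a collagen chain gene or a laminin chain gene, or is one of Fn1, Sparc, Fbln1, Fbln2, Lum, Dcn, Postn, Vcan, Nid1, Nid2, Tnc, Bgn, Lgals1 and Hspg2. That rule gave 154 probes for 64 genes, of 45281 probes on the array, whether or not a probe was detected. The 3 samples labelled Hox5 mut are, going by the series title, Hoxa5 fl/fl with olig2CRE and Hoxc5-/-, and the 3 other samples are labelled wild type. Olig2 is expressed in the progenitors that give rise to motor neurons, so olig2CRE leaves a floxed allele intact in lineages that never express Olig2. All 6 samples were cervical motor neurons of stage e12.5 embryos on a mixed c57/bl6, balbc and fvb background, sorted by the HB9::GFP reporter after papain and DNase dissociation. The labels leave out whether the wild-type embryos carried Cre or a floxed allele, and whether a sample was 1 embryo or a pool. The p-values therefore cover only the variation among these 6 samples.

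The extracellular matrix is the network of secreted proteins between cells. Collagens form triple helices that assemble into fibrils or sheets, and laminins, collagen IV, nidogens and perlecan together form basement membranes, the thin sheets under epithelia, around blood vessels and at the surface of the neural tube. In the embryonic spinal cord fibrillar collagens and small leucine-rich proteoglycans are made mainly by mesenchyme and meninges, and vascular basement membrane by endothelial cells and pericytes. Neurons are not a main source of either, while tenascin, versican and laminin are also made by neural progenitors.

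Values are normalized log2 intensities, 1 per probe and array, given in the order of replicates 1, 2 and 3 of each group. A probe was called detected where its deposited detection p was under 0.05, and between 19307 and 20307 of all probes were detected on each array. Values near the lowest detected level, which lay between 4.85 and 4.93 on the 6 arrays, are background. Differences are Hox5 mut minus wild type on the log2 scale and come from limma fitted on 13638 features, in which a gene is represented by its brightest kept probe. The genotype could not be checked on these arrays. Hoxc5 measured 6.58, 7.65 and 7.71 on the arrays labelled Hox5 mut and 6.47, 6.59 and 6.68 on the wild-type arrays, a higher and not a lower mean for the deleted gene, and Hoxa5 measured 13.15, 13.81 and 13.67 on the arrays labelled Hox5 mut and 14.03, 13.99 and 13.94 on the wild-type arrays. No source used here places the 2 probes inside or outside the deleted sequence. Each group is therefore called by its label, and a Hox5 mut replicate is an array so labelled. All 12 motor neuron markers on the array, among them Isl1, Mnx1, Chat and Slc18a3, were detected on at least 1 array.

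One array stood apart, Hox5 mut replicate 1. It correlated with the other 5 arrays at Pearson's r of 0.943 to 0.963 over all features, where the other 5 correlated among themselves at 0.981 to 0.990. On Hox5 mut replicate 1, 82 of the 154 matrix probes were detected, against 44 and 46 on Hox5 mut replicates 2 and 3 and 52, 53 and 46 on the wild-type arrays. Over all probes the same 6 arrays detected 44.2%, 43.3% and 42.8% among those labelled Hox5 mut and 44.8%, 42.9% and 42.6% among wild type. Hox5 mut replicate 1 thus detected fewer probes in all than wild-type replicate 1. Of the matrix probes, 23 were detected on Hox5 mut replicate 1 alone, where 2.3% of all probes were. A further 63 were detected on no array and 36 on every array. The counts and medians over all tested matrix genes, and many of the gene differences, are therefore also given without Hox5 mut replicate 1.

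**Figure D1:**
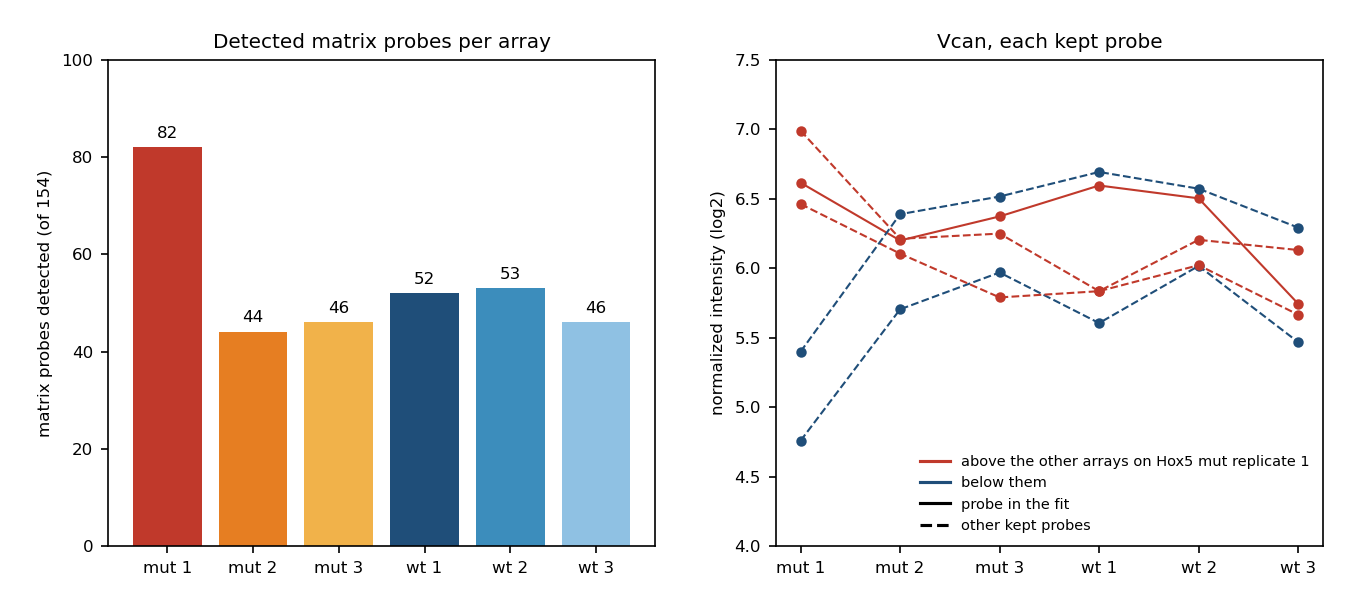
Left, the number of the 154 matrix probes detected on each array, by group and replicate, with 82 on Hox5 mut replicate 1 and 44 to 53 on the others. Right, normalized log2 intensity of the 5 kept probes of Vcan on each array, lines joining the values of 1 probe, of which 3 stand above the mean of the other 5 arrays on Hox5 mut replicate 1 and 2 below it.

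No matrix gene passed the test between the groups. A test was possible for 33 of the 64 genes, those with a probe detected on at least 3 arrays, and 0 passed an adjusted p of 0.05, where 0% of all features passed. The smallest limma adjusted p among the 33 was 0.997. Col15a1 alone had an unadjusted p under 0.05, in the higher direction, where 0.851% of all features did, and none did in the lower direction, where 0.983% did. Of all features 250 or 1.83% had one in either direction. The arrays of the 2 groups were fully separated for Col15a1 and Col9a3, both higher on the arrays labelled Hox5 mut, where 2.66% of all features did so, and for none in the lower direction, where 2.84% did. The other 31 genes overlapped between the groups. Of the 33, 30 had a difference above 0, beside 47.4% of all features, and their median was 0.59 beside −0.014 over all features. Without Hox5 mut replicate 1, 27 of 33 were below 0, where 49% of all features were, the median was −0.17 beside 0.0034, and 0 passed, where 0% of all features did. Unadjusted p-values under 0.05 were then found for 2 genes, where 2.47% of all features had one, Col15a1 in the higher and Col4a5 in the lower direction, at background shares of 1.09% and 1.39%.

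The filter left out 31 of the 64 genes, and Col15a1 entered the test through its detection on the arrays labelled Hox5 mut alone. With no filter on dim probes 0 of the 64 genes passed in limma and 2 had an unadjusted p under 0.05, a share close to the 2.81% of all features. They were Col15a1 and, in the lower direction, Col4a3, which was detected on no array. Of the 64, 50 were above 0, where 49.1% of all features were, and their median was 0.36. With neither the filter nor Hox5 mut replicate 1, 49 of 64 were below 0, where 50.6% of all features were, with a median of −0.10. In sorted cells that are processed in bulk, fewer cells of a type and less RNA per cell cannot be told apart.

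**Figure D2:**
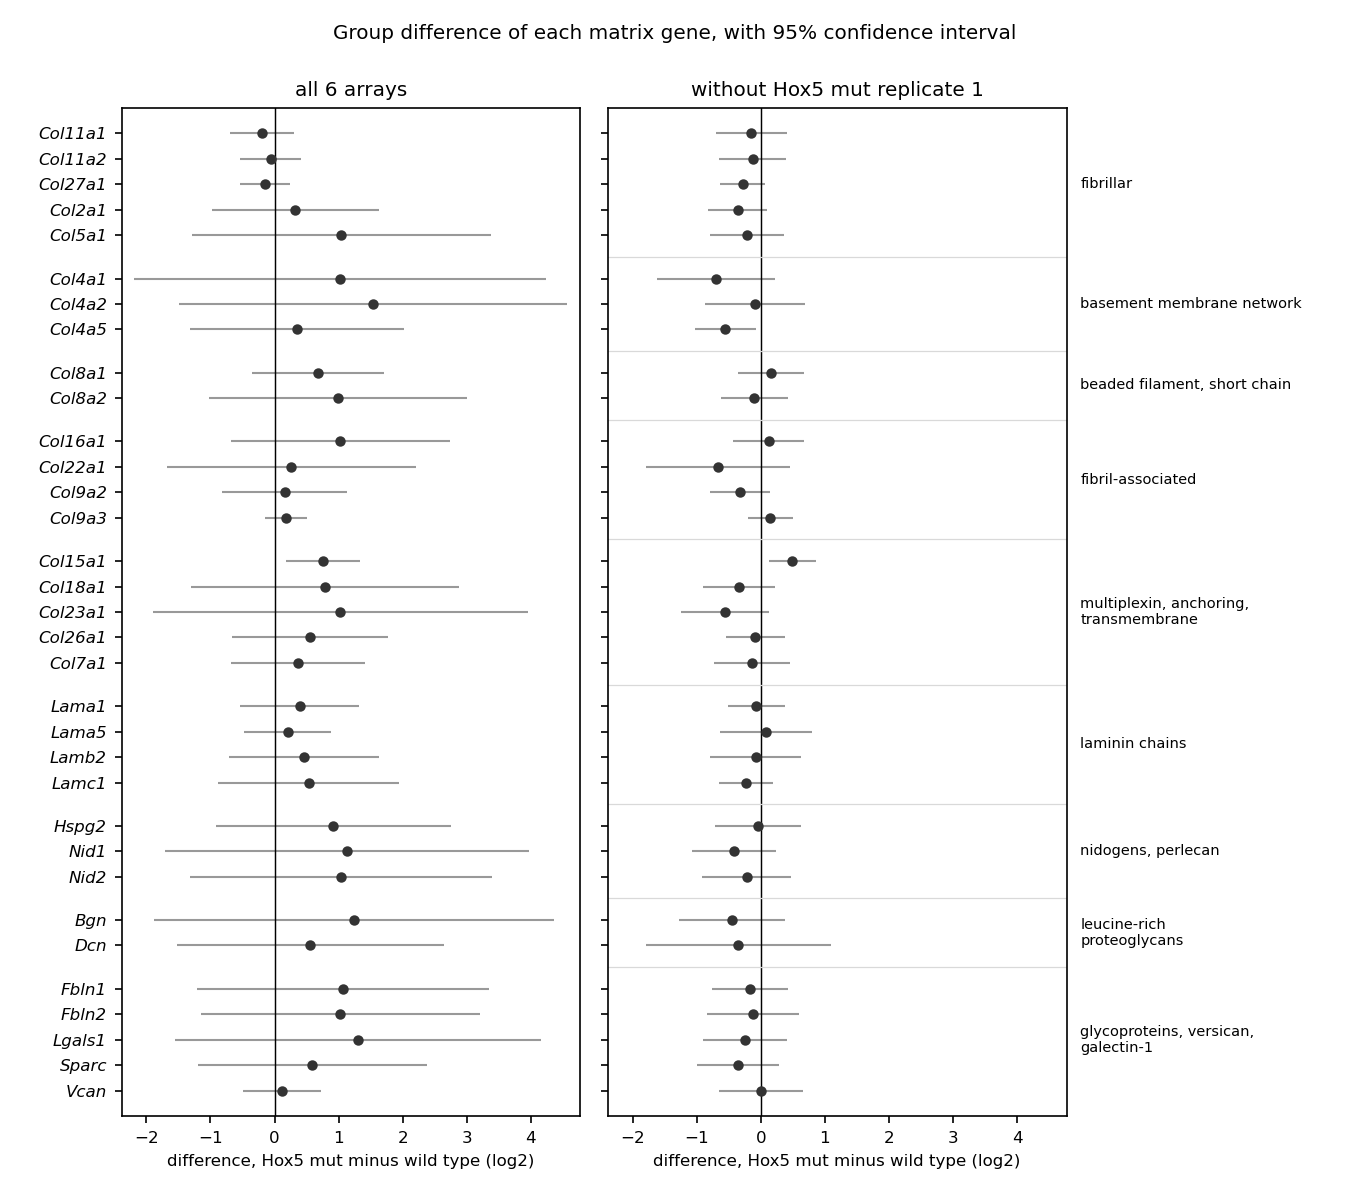
Difference of each of the 33 tested matrix genes, Hox5 mut minus wild type on the log2 scale, with 95% confidence intervals, over all 6 arrays (left) and without Hox5 mut replicate 1 (right). On the left 30 of 33 points lie above 0 with wide intervals, and on the right 27 of 33 lie below 0.

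The high values lay on 1 array. The highest value of a gene was that of Hox5 mut replicate 1 for 28 of the 33 tested genes, where this held for 25.7% of all features. The lowest value was on that array for none of them, where this held for 35.7%. It stood over 1 log2 unit above the mean of the other 5 arrays for 27 of the 33, where 6.53% of all features did, with a median of 2.38 or 5.21-fold. Of the 100 features with the largest excess on that array 13 were matrix genes, and of the 500 with the largest, 24, where 33 of all 13638 features were matrix genes. Col8a1, Col8a2, Col15a1 and Col23a1 would not have passed the filter without their detection on that array. Their place in these counts is therefore not independent of the filter. The summed normalized intensity of the 33 genes was 51545, 7723 and 5407 on the arrays labelled Hox5 mut and 9355, 6616 and 7520 on the wild-type arrays. With no filter it was the highest array for 43 of 64 genes, where 22% of all features were highest there.

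**Figure D3:**
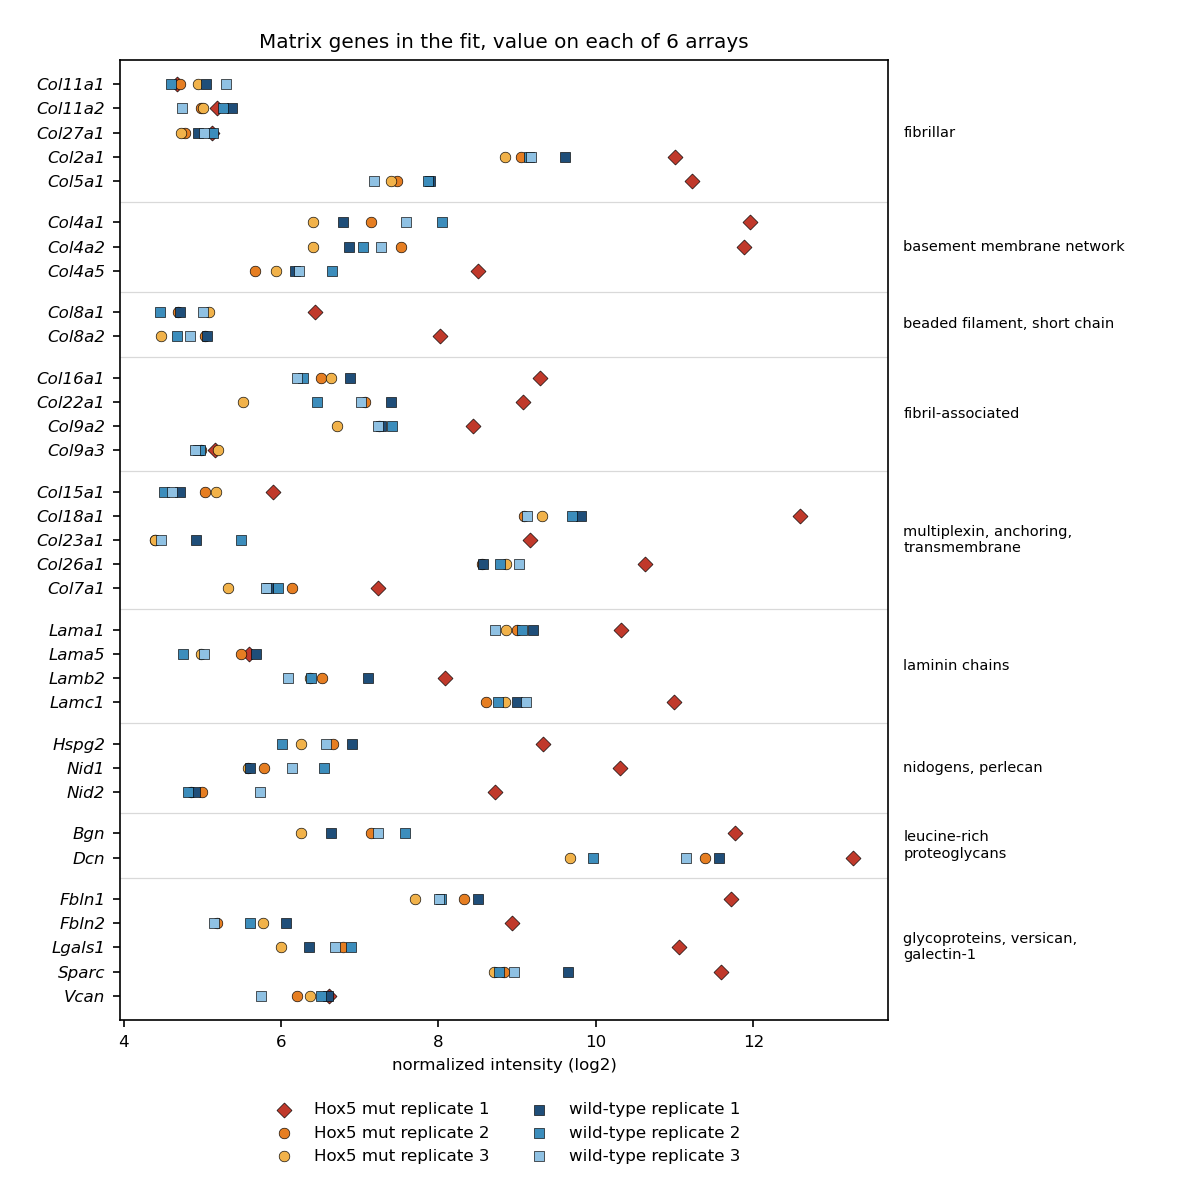
Normalized log2 intensity of each tested matrix gene on the 6 arrays, grouped by role, with the 3 arrays labelled Hox5 mut in red and orange and the 3 wild-type arrays in blue. Hox5 mut replicate 1 (diamonds) lies to the right of every other array for 28 of the 33 genes, and values near 5 are close to background.

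Fibrillar collagens form the cross-banded fibres of connective tissue, and 9 of the 11 on the array were detected on some array. The chains of type I and type III collagen, the main fibrillar collagens of skin, vessel wall and meninges, were not detected on enough arrays to be tested. The Col1a1 probe measured 8.79, 4.52 and 4.39 on the arrays labelled Hox5 mut and 4.31, 5.08 and 4.48 on the wild-type arrays, and was detected on Hox5 mut replicate 1 and wild-type replicate 2 alone. Col1a2 measured 7.05, 4.47 and 4.49 on the arrays labelled Hox5 mut and 4.43, 4.80 and 4.44 on the wild-type arrays. It was detected on Hox5 mut replicate 1 alone, at least 4.44-fold above the other 5 arrays, each counted at its lowest detected level or at the probe's own value where that was higher. The brighter of 2 Col3a1 probes measured 9.02, 4.47 and 4.32 on the arrays labelled Hox5 mut and 4.46, 4.71 and 4.37 on the wild-type arrays, at least 17.3-fold higher on that array by the same bound. All other arrays lay at background for Col1a2 and Col3a1.

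Col5a1, whose product helps set fibril diameter, was detected on every array, at 11.21, 7.47 and 7.40 on the arrays labelled Hox5 mut and 7.90, 7.87 and 7.18 on the wild-type arrays. Only Hox5 mut replicate 1 stood apart, 12.6-fold above the mean of the other arrays. The difference was 1.04 (95% interval −1.28 to 3.37), and −0.22 without that array. Col2a1 encodes the collagen of cartilage and notochord and is also made in the early neural tube. It measured 11.00, 9.05 and 8.84 on the arrays labelled Hox5 mut and 9.60, 9.15 and 9.17 on the wild-type arrays, and its difference was 0.32 (95% interval −0.98 to 1.63). Without Hox5 mut replicate 1 it was −0.36 (95% interval −0.83 to 0.10), and both remaining arrays labelled Hox5 mut lay below all 3 wild-type arrays. The other 2 probes of Col2a1 gave −0.42 and −0.49 in that comparison, and the second of the 3 overlapped between the groups.

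Col11a1, Col11a2 and Col27a1, minor fibrillar collagens of cartilage, were not highest on Hox5 mut replicate 1 with the probes in the fit. Col11a1 measured 4.68, 4.72 and 4.95 on the arrays labelled Hox5 mut and 5.04, 4.60 and 5.30 on the wild-type arrays, with a difference of −0.20 (95% interval −0.70 to 0.30). For Col11a2 the values were 5.19, 4.99 and 5.01 on the arrays labelled Hox5 mut and 5.37, 5.26 and 4.74 on the wild-type arrays. Those of Col27a1 were 5.13, 4.78 and 4.74 on the arrays labelled Hox5 mut and 4.94, 5.13 and 5.03 on the wild-type arrays. All 3 lay close to background, the groups overlapped, and the highest array was wild type for each. Another probe of Col27a1 read 6.42 on Hox5 mut replicate 1, at least 2.85-fold above the other 5 arrays, none of which detected it. By list, 2 of 5 tested fibrillar genes were above 0, with a median of −0.061, and 0 of 5 without Hox5 mut replicate 1, with a median of −0.22.

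Collagen IV forms the sheet of every basement membrane, and its main chains are the products of Col4a1 and Col4a2. With Bgn, these were the 3 tested members with the largest excess on Hox5 mut replicate 1. Col4a1 measured 11.95, 7.14 and 6.41 on the arrays labelled Hox5 mut and 6.79, 8.04 and 7.59 on the wild-type arrays, which puts that array 27.1-fold above the mean of the other 5. Col4a2 measured 11.88, 7.53 and 6.40 on the arrays labelled Hox5 mut and 6.86, 7.04 and 7.27 on the wild-type arrays, 29-fold above. The other arrays did not rank the same way for the 2 chains. Col4a1 was highest among them on wild-type replicate 2 and Col4a2 on Hox5 mut replicate 2, and both were lowest on Hox5 mut replicate 3. The difference was 1.02 (95% interval −2.19 to 4.24) for Col4a1 and 1.54 (95% interval −1.49 to 4.57) for Col4a2, and without Hox5 mut replicate 1 it was −0.70 (95% interval −1.63 to 0.22) and −0.096 (95% interval −0.87 to 0.68).

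Col4a1 and Col4a2 lie head to head on mouse chromosome 8 and share a promoter, shown here because both genes had a large excess on the same array. In the RefSeq windows of build GRCm38.p6, from 250 bases before to 50 after each start, the 2 starts lie 21 bases apart on opposite strands and the windows share 78 bases. Col4a1 starts at 11312826 on the minus strand and Col4a2 at 11312805 on the plus strand, so their annotated 5′ ends overlap. Each window is written 5′ to 3′ on its own gene's strand, and capitals mark the shared bases.
Col4a1, chr8:11312777-11313076, minus strand: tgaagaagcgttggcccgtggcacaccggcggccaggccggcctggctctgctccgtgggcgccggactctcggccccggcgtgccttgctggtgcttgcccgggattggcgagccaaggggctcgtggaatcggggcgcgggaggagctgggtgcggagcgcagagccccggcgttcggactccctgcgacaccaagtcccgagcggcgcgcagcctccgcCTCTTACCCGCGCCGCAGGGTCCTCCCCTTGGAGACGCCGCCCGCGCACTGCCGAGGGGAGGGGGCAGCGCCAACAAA
Col4a2, chr8:11312555-11312854, plus strand: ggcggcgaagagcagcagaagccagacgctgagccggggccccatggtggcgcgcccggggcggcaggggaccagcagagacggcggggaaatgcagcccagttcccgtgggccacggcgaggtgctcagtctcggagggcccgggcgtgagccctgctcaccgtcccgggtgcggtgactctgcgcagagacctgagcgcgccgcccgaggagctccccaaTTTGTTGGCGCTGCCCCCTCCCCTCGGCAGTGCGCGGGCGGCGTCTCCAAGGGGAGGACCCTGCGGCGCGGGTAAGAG
Searched on both strands, the GC box letters GGGCGG and the CCAAT letters occur in both windows and the TATAAA letters in neither. Such windows were found for 47 of the 64 matrix genes, and of these 68.1% hold GGGCGG, 36.2% CCAAT and 14.9% TATAAA. The shares over all 17492 protein-coding genes with a window are 49.2%, 42.3% and 14.8%.

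Col4a5, a chain of more restricted basement membranes such as that of the kidney glomerulus, measured 8.50, 5.67 and 5.94 on the arrays labelled Hox5 mut and 6.18, 6.65 and 6.23 on the wild-type arrays. Its difference was 0.35 (95% interval −1.33 to 2.02) over all arrays. Without Hox5 mut replicate 1 it was −0.55 (95% interval −1.03 to −0.075), with no overlap between the groups and an unadjusted p of 0.0292 in limma, which did not pass after adjustment. The second kept probe gave −0.064 there. Groups without Hox5 mut replicate 1 did not overlap for 4 tested matrix genes in the lower direction, Col4a5, Col2a1, Col23a1 and Col27a1, where 6.52% of all features did so, and for 2 in the higher, where 7.08% did. Neither of the 2 remaining arrays labelled Hox5 mut detected the fitted probes of Col23a1 and Col27a1. Col4a3 and Col4a4, whose chains join Col4a5 in the glomerulus, were detected on no array, and Col4a6 was dim, detected on Hox5 mut replicate 1 and wild-type replicate 2 through different probes.

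Laminins are cross-shaped trimers of an alpha, a beta and a gamma chain that bind cells to basement membranes. Lamc1, the gamma chain of most laminins, measured 10.99, 8.61 and 8.85 on the arrays labelled Hox5 mut and 8.99, 8.75 and 9.12 on the wild-type arrays, and Lama1, the alpha chain of the early embryo and of the neural tube surface, measured 10.32, 8.99 and 8.86 on the arrays labelled Hox5 mut and 9.20, 9.06 and 8.72 on the wild-type arrays. Lamb2 measured 8.09, 6.52 and 6.37 on the arrays labelled Hox5 mut and 7.11, 6.38 and 6.09 on the wild-type arrays. All 3 were highest on Hox5 mut replicate 1, by 4.38-fold, 2.55-fold and 3.02-fold over the other arrays. Lama5, the broadly used alpha chain, was dim at 5.60, 5.49 and 4.98 on the arrays labelled Hox5 mut and 5.68, 4.76 and 5.03 on the wild-type arrays, and wild-type replicate 1 was its highest array. The differences were 0.53 (95% interval −0.88 to 1.94) for Lamc1, 0.39 (95% interval −0.53 to 1.32) for Lama1, 0.47 for Lamb2 and 0.20 for Lama5. Without Hox5 mut replicate 1 they were −0.22, −0.070, −0.082 and 0.083. The median of the 4 was 0.43 with that array and −0.076 without it.

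Other laminin chains were at or near background. The gamma chain gene Lamc3, made in brain and meninges, was an exception on 1 array: its brightest probe measured 8.87, 4.46 and 4.50 on the arrays labelled Hox5 mut and 4.46, 4.79 and 4.48 on the wild-type arrays, at least 15.6-fold higher on Hox5 mut replicate 1. Another of its 4 probes, also detected on wild-type replicate 3, measured 7.89, 4.67 and 4.37 on the arrays labelled Hox5 mut and 4.59, 4.89 and 4.96 on the wild-type arrays. Lamb1, the beta chain that partners Lama1 and Lamc1, had 1 probe, detected on Hox5 mut replicate 1 alone at 4.95. Lama2 was detected on Hox5 mut replicate 1 and wild-type replicate 2, and Lama4 and Lamb3 on no array, with 5 probes for Lama4.

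Nidogens bridge the laminin and collagen IV networks, and perlecan, the product of Hspg2, is their heparan sulfate proteoglycan. Nid1 measured 10.31, 5.79 and 5.58 on the arrays labelled Hox5 mut and 5.61, 6.55 and 6.13 on the wild-type arrays. Nid2 measured 8.72, 5.0 and 4.86 on the arrays labelled Hox5 mut and 4.90, 4.82 and 5.74 on the wild-type arrays, and Hspg2 9.33, 6.66 and 6.25 on the arrays labelled Hox5 mut and 6.90, 6.01 and 6.58 on the wild-type arrays. Each was highest on Hox5 mut replicate 1, by 20.8-fold, 12.6-fold and 7.23-fold. Their differences were 1.13, 1.04 and 0.92, with a median of 1.04. Without Hox5 mut replicate 1 all 3 were below 0, at −0.41, −0.22 and −0.041, and the second kept probe of Hspg2 was at 0.096. Nid2 was detected on 4 of the 6 arrays, so its fold and differences include 2 values at background, and the other nidogen and perlecan were detected on all.

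Small leucine-rich proteoglycans coat collagen fibrils. Dcn, which encodes decorin, was detected on every array and varied within both groups, at 13.27, 11.39 and 9.68 on the arrays labelled Hox5 mut and 11.56, 9.96 and 11.14 on the wild-type arrays. Among the 5 arrays other than Hox5 mut replicate 1 it was lowest on Hox5 mut replicate 3 and highest on wild-type replicate 1. A second Dcn probe measured 10.47, 8.22 and 6.88 on the arrays labelled Hox5 mut and 8.59, 6.94 and 8.28 on the wild-type arrays, again with Hox5 mut replicate 3 lowest. The difference was 0.56 (95% interval −1.52 to 2.64), and −0.35 (95% interval −1.80 to 1.09) without Hox5 mut replicate 1. Bgn, which encodes biglycan, measured 11.77, 7.14 and 6.26 on the arrays labelled Hox5 mut and 6.64, 7.58 and 7.23 on the wild-type arrays, 27.8-fold above the other arrays on Hox5 mut replicate 1, with a difference of 1.24 (95% interval −1.89 to 4.37) that became −0.45 without it. Lum, which encodes lumican, was detected on Hox5 mut replicate 1 and wild-type replicate 2 alone, and its 2 probes measured 10.19, 4.41 and 4.49 on the arrays labelled Hox5 mut and 4.32, 5.98 and 4.34 on the wild-type arrays, and 8.81, 4.56 and 4.40 on the arrays labelled Hox5 mut and 4.36, 5.03 and 4.30 on the wild-type arrays. On the other 4 arrays Lum was not detected, while Dcn was detected on all 6.

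Among the glycoproteins, Fbln1 and Fbln2, which encode fibulins of fibroblast matrix and vessel wall, were both detected on every array. Fbln1 measured 11.72, 8.32 and 7.70 on the arrays labelled Hox5 mut and 8.50, 8.03 and 8.01 on the wild-type arrays, and Fbln2 8.94, 5.19 and 5.77 on the arrays labelled Hox5 mut and 6.06, 5.60 and 5.15 on the wild-type arrays. Sparc, a collagen-binding protein, measured 11.59, 8.83 and 8.71 on the arrays labelled Hox5 mut and 9.64, 8.77 and 8.96 on the wild-type arrays. Lgals1, which encodes the secreted lectin galectin-1, measured 11.05, 6.79 and 6.00 on the arrays labelled Hox5 mut and 6.35, 6.89 and 6.69 on the wild-type arrays. All of them were highest on Hox5 mut replicate 1, by 12.2-fold, 10.4-fold, 6.11-fold and 22.8-fold. Of the other 5 arrays, wild-type replicate 1 was the highest for Fbln1, Fbln2 and Sparc and wild-type replicate 2 for Lgals1. The differences were 1.07, 1.03, 0.59 and 1.30 over 6 arrays, and −0.17, −0.12, −0.36 and −0.25 without Hox5 mut replicate 1. The 2 other kept probes of Fbln1 and of Sparc had the same signs in both comparisons.

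Vcan, which encodes the large chondroitin sulfate proteoglycan versican of embryonic mesenchyme and neural tissue, did not read alike across its probes. The probe in the fit measured 6.62, 6.20 and 6.37 on the arrays labelled Hox5 mut and 6.60, 6.50 and 5.74 on the wild-type arrays, with a difference of 0.12 (95% interval −0.50 to 0.73). The other 2 probes that were highest on Hox5 mut replicate 1 measured 6.99, 6.21 and 6.25 on the arrays labelled Hox5 mut and 5.84, 6.20 and 6.13 on the wild-type arrays, and 6.46, 6.11 and 5.79 on the arrays labelled Hox5 mut and 5.84, 6.02 and 5.67 on the wild-type arrays. Lowest on that array were a probe at 5.40, 6.39 and 6.52 on the arrays labelled Hox5 mut and 6.69, 6.57 and 6.29 on the wild-type arrays, and another at 4.76, 5.70 and 5.97 on the arrays labelled Hox5 mut and 5.61, 6.02 and 5.47 on the wild-type arrays. Vcan was the only gene of the 11 with more than 1 kept probe whose kept probes differed in sign, with 3 of 5 above 0. Which transcript forms each probe reads was not examined here.

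Tnc, which encodes tenascin C of glia and perichondrium, had 7 probes, none kept for the test. The probe with the highest single value measured 8.19, 4.41 and 4.45 on the arrays labelled Hox5 mut and 4.34, 5.12 and 4.32 on the wild-type arrays. It was detected on Hox5 mut replicate 1 and wild-type replicate 2. A second read 8.03 on Hox5 mut replicate 1 alone, at least 8.76-fold above the other arrays. Fn1, which encodes fibronectin, had 4 probes near background, the highest value being 5.81 on Hox5 mut replicate 1. Postn, which encodes periostin of fibrous tissue, was detected on no array with any of 3 probes.

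Beaded filament and short chain collagens form fine networks around cells and under endothelium. Col6a1, a chain of type VI collagen, had 2 of 3 probes detected on Hox5 mut replicate 1 and wild-type replicate 2 alone, the brighter at 9.99, 4.42 and 4.61 on the arrays labelled Hox5 mut and 4.39, 5.87 and 4.36 on the wild-type arrays. Its partner Col6a2 measured 7.52, 4.59 and 4.49 on the arrays labelled Hox5 mut and 4.42, 4.64 and 4.43 on the wild-type arrays, detected on Hox5 mut replicate 1 alone and there at least 6.12-fold higher. Col8a1 and Col8a2, made by vascular cells, were tested. They measured 6.43, 4.69 and 5.09 on the arrays labelled Hox5 mut and 4.72, 4.46 and 5.01 on the wild-type arrays for Col8a1, and 8.03, 5.04 and 4.48 on the arrays labelled Hox5 mut and 5.06, 4.68 and 4.84 on the wild-type arrays for Col8a2. Each was detected on 3 of the 6 arrays, so these values include background. Both were highest on Hox5 mut replicate 1, with differences of 0.68 and 0.99, and 0.16 and −0.10 without it. Another Col8a1 probe, used with no filter, was detected on Hox5 mut replicate 1 and wild-type replicate 1 alone. It gave 0.44 over all arrays and −0.25 without Hox5 mut replicate 1, with the remaining Hox5 mut arrays at background. Col10a1 of growth plate cartilage and Col6a4, Col6a5 and Col6a6 were detected on no array.

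Fibril-associated collagens attach to the surface of fibrils. Col16a1 measured 9.29, 6.51 and 6.63 on the arrays labelled Hox5 mut and 6.87, 6.28 and 6.20 on the wild-type arrays, and Col22a1, known from the muscle-tendon junction, measured 9.07, 7.07 and 5.51 on the arrays labelled Hox5 mut and 7.40, 6.46 and 7.01 on the wild-type arrays. Both were highest on Hox5 mut replicate 1, and Col22a1 was lowest of all on Hox5 mut replicate 3. Col9a2, a chain of the type IX collagen that decorates cartilage fibrils, measured 8.44, 7.24 and 6.71 on the arrays labelled Hox5 mut and 7.27, 7.41 and 7.23 on the wild-type arrays. Its partner Col9a3 measured 5.16, 4.98 and 5.20 on the arrays labelled Hox5 mut and 4.95, 4.97 and 4.90 on the wild-type arrays. The 3 arrays labelled Hox5 mut all lay above the wild-type arrays for Col9a3, by a difference of 0.17 (95% interval −0.15 to 0.50), and 0.15 without replicate 1. At 5.20 its highest value was close to background. For the other 3 tested members the differences were 1.03 for Col16a1, 0.26 for Col22a1 and 0.16 for Col9a2, and without Hox5 mut replicate 1 they were 0.12, −0.67 and −0.33.

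Col15a1 and Col18a1 encode multiplexins, basement membrane collagens that carry sugar chains, and Col18a1 is the source of endostatin. Col15a1 was the member with the smallest unadjusted p, at 5.90, 5.03 and 5.18 on the arrays labelled Hox5 mut and 4.72, 4.52 and 4.62 on the wild-type arrays. All 3 arrays labelled Hox5 mut exceeded all wild-type arrays, and no wild-type array detected the gene. It passed the filter through those 3 arrays alone, so its separation and p-value are not independent of the filter. With Hox5 mut replicate 1 included, it was at least 1.39-fold higher. That bound sets the mean of the arrays labelled Hox5 mut against each wild-type array's lowest detected level, or the probe's own value where that was higher. It was raised by the 5.90 of Hox5 mut replicate 1, and no bound was computed without that array. The unadjusted limma p was 0.0179 and the adjusted p 0.997. Without Hox5 mut replicate 1 the fitted difference, against wild-type arrays at background, was 0.49 (95% interval 0.13 to 0.85). Hox5 mut replicates 2 and 3 read 5.03 and 5.18, close to the lowest detected level. Col18a1 was bright on every array, at 12.59, 9.09 and 9.32 on the arrays labelled Hox5 mut and 9.81, 9.70 and 9.13 on the wild-type arrays, and 9.09-fold higher on Hox5 mut replicate 1. Its difference of 0.79 (95% interval −1.31 to 2.88) became −0.34 without that array.

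The transmembrane collagen gene Col23a1 measured 9.17, 4.41 and 4.40 on the arrays labelled Hox5 mut and 4.92, 5.49 and 4.48 on the wild-type arrays. Only Hox5 mut replicate 1 and wild-type replicates 1 and 2 detected it, so no fold is given for this probe. Its second probe was detected on Hox5 mut replicate 1 alone, at least 6.58-fold above the other 5 arrays. Col7a1, the anchoring fibril collagen of skin, measured 7.23, 6.14 and 5.33 on the arrays labelled Hox5 mut and 5.83, 5.96 and 5.81 on the wild-type arrays, and Col26a1 10.62, 8.56 and 8.86 on the arrays labelled Hox5 mut and 8.57, 8.78 and 9.03 on the wild-type arrays. Both were highest on Hox5 mut replicate 1, and the other arrays overlapped between the groups. Col25a1, a transmembrane collagen of neurons, was the 1 untested gene detected somewhere but not on Hox5 mut replicate 1, and was seen only on Hox5 mut replicate 3 and wild-type replicate 1. Col17a1 and Col28a1 were detected on no array, and Col13a1 on Hox5 mut replicate 1 alone.

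The 64 genes can be accounted for as 33 tested, 17 detected on some array but not tested, and 14 with no probe detected on any array. The 14 undetected genes were Col10a1, Col17a1, Col19a1, Col24a1, Col28a1, Col4a3, Col4a4, Col5a3, Col6a4, Col6a5, Col6a6, Lama4, Lamb3 and Postn. Of the 17, 16 were detected on Hox5 mut replicate 1. That array was the only one for 6 of them, Col13a1, Col14a1, Col1a2, Col3a1, Col6a2 and Lamb1. For 8 it was joined by wild-type replicate 2 alone, and those were Col1a1, Col4a6, Col5a2, Col6a1, Fn1, Lama2, Lum and Tnc. Col9a1 was detected on 3 arrays through separate probes and no single probe of it was detected on 3.

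Among the other 5 arrays the matrix genes also ranked unevenly. Wild-type replicate 1 was the highest of the 5 for 16 of the 33 tested genes, where it was the highest for 22.4% of all features. Wild-type replicate 2 was the highest for 8, where 23.4% of all features were, and wild-type replicate 3 for 4, where 17.4% were. Hox5 mut replicates 2 and 3 were the highest for 2 and 3 genes, where 18% and 18.7% of all features were. Genes that peaked on wild-type replicate 1 included Dcn, Sparc, Col2a1, Fbln1, Hspg2 and Lamb2, and those on wild-type replicate 2 included Col4a1, Nid1, Bgn, Lgals1 and Col23a1. Relative to the wild-type mean, the median of the 33 genes was −0.063 on Hox5 mut replicate 2 and −0.29 on Hox5 mut replicate 3, and 0.10, −0.010 and −0.036 on wild-type replicates 1, 2 and 3. With both replicates numbered 1 left out, 23 of 33 genes were below 0, with a median of −0.12, and 0 passed.

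**Figure D4:**
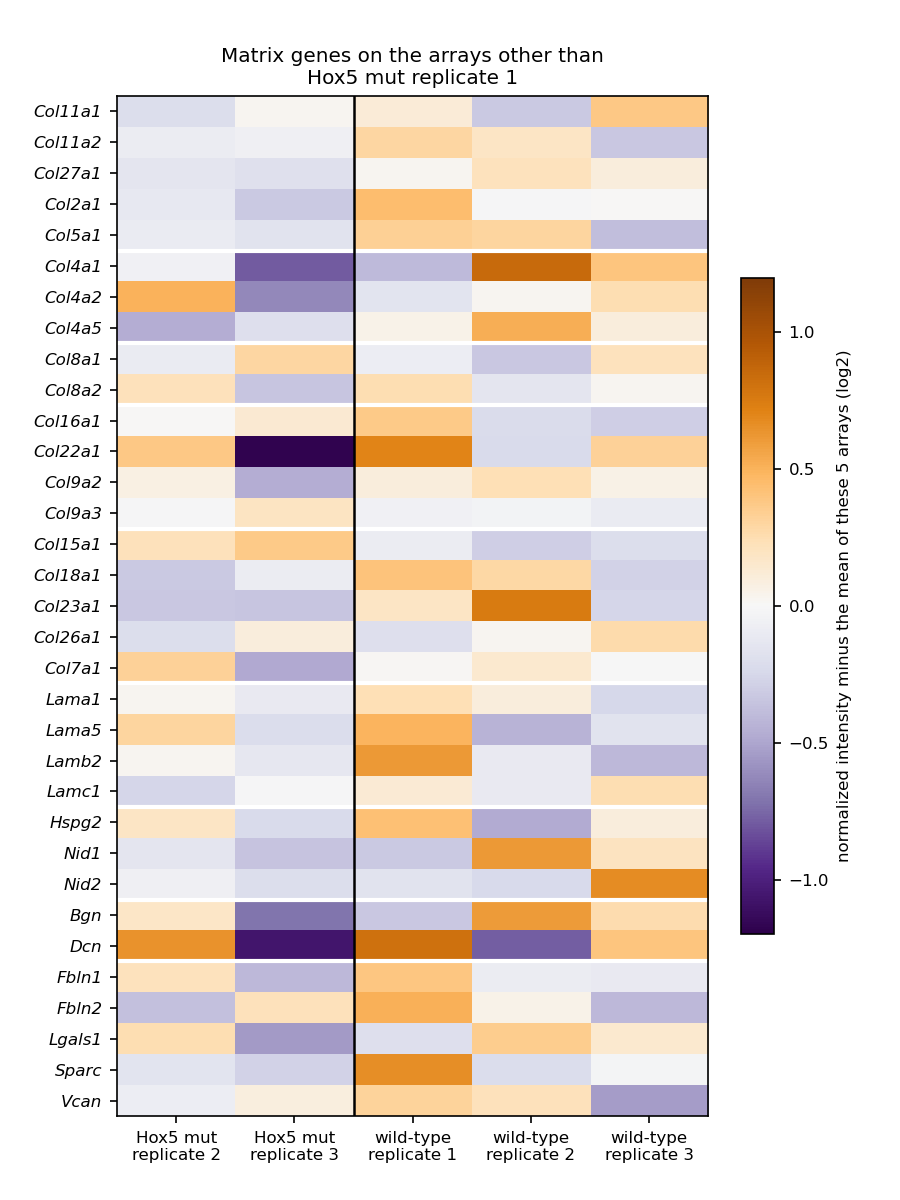
Normalized log2 intensity of each tested matrix gene on the 5 arrays other than Hox5 mut replicate 1, minus the gene's mean over those 5 (colour scale, log2), with the 2 arrays labelled Hox5 mut left of the line and the 3 wild-type arrays right of it. Wild-type replicate 1 is the highest column for 16 of the 33 genes, and Dcn, Col4a1 and Col22a1 show wide spreads between arrays of 1 group.

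Genes that make, read or remodel the matrix were examined as 4 further lists. None of their genes passed in limma, where 0% of all features did, and 0 had an unadjusted p under 0.05, where 1.83% did. Of all features 47.4% were above 0 over the 6 arrays, and 49% were below 0 without Hox5 mut replicate 1. For enzymes that fold, cut and crosslink collagen, 15 of 16 tested genes were above 0 and 1 below, with a median of 0.30, and 7 of 16 and −0.010 without Hox5 mut replicate 1. The prolyl hydroxylase gene P3h3 and the lysyl oxidase family gene Loxl1 had the smallest p in the higher direction, with differences of 0.72 and 1.38, and 0.17 and 0.095 without that array. P4ha2, at −0.069, was the 1 gene below 0, and it was at −0.063 without that array. Loxl1 measured 9.07, 5.45 and 4.98 on the arrays labelled Hox5 mut and 4.83, 5.26 and 5.27 on the wild-type arrays, with Hox5 mut replicate 1 above all the others. For matrix receptors, 12 of 21 tested genes were above 0 and 9 below, with a median of 0.11, and 6 of 21 and −0.091 without Hox5 mut replicate 1. Dystroglycan (Dag1) and the collagen-binding integrin gene Itga11 were at 0.82 and 1.45, and the integrin genes Itgb1 and Itga4 at −0.27 and −0.24. Without Hox5 mut replicate 1, Dag1 was at 0.24, Itga11 at 0.21, Itgb1 at −0.19 and Itga4 at −0.23. Itga11 was detected on 2 Hox5 mut arrays and 1 wild-type array, and Itga4 on 1 and 2, so their differences include background values.

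For proteases and their inhibitors, 11 of 15 tested genes were above 0 and 4 below, with a median of 0.37, and 7 of 15 and −0.0039 without Hox5 mut replicate 1. The metalloproteinase genes Mmp17 and Mmp23 were at 0.34 and 0.62, and Mmp16 and Mmp24 at −0.44 and −0.067. Without Hox5 mut replicate 1, Mmp17 was at 0.24, Mmp23 at 0.23, Mmp16 at −0.16 and Mmp24 at 0.057. For the remaining matrix proteins, 16 of 27 tested genes were above 0 and 11 below, with a median of 0.12, and 14 of 27 and 0.021 without Hox5 mut replicate 1. Emilin1, a glycoprotein of elastic fibres, was at 0.88 and Smoc1 at 0.42. Hapln4 and the glypican gene Gpc2 were at −0.21 and −0.29. Without Hox5 mut replicate 1, Emilin1 was at 0.38, Smoc1 at 0.13, Hapln4 at −0.20 and Gpc2 at 0.083. Mmp23 was detected on 2 arrays of each group, and Emilin1 on 3 Hox5 mut arrays and 1 wild-type array. Their differences thus include background values. Hox5 mut replicate 1 was the highest array for 12 of 16 enzymes, 13 of 21 receptors, 10 of 15 proteases and inhibitors and 14 of 27 other matrix proteins, beside 28 of 33 of the collagens, laminins and their companions. Of all features 25.7% were highest on that array. Its median excess over the other 5 arrays was 1.06, 0.43, 1.60 and 0.32 for the 4 lists, beside 2.38, and −0.066 over all features.

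Markers of several other cell types, though not of all, moved with the matrix genes on the same array, and their part in the matrix result was not tested. The marker lists hold none of the 64 matrix genes, and Acan, Hapln1, Matn1, Matn3 and Mfap2 are also on the list of other matrix proteins. Sums are of normalized intensities on the linear scale over the tested markers of a list, in the order of replicates. Endothelial markers summed to 5880, 759 and 565 on Hox5 mut arrays against 747, 578 and 901 on wild-type arrays, with 15 of 18 detected on some array and Erg, Sox17 and Tie1 on none. For pericytes and smooth muscle the sums were 1481, 272 and 288 on Hox5 mut arrays against 386, 286 and 368 on wild-type arrays, with 9 of 11 detected and Cnn1 and Tagln on no array. Fibroblast and mesenchyme markers summed to 7302, 1866 and 1398 on Hox5 mut arrays against 1953, 1613 and 1712 on wild-type arrays. Of these 14 of 19 were detected, and Meox1, Osr2, Snai2, Tbx18 and Tcf21 were not. Most of each mesenchyme sum came from Mfap2, itself a matrix gene. It measured 12.42, 10.63 and 10.21 on Hox5 mut arrays and 10.71, 10.39 and 10.52 on wild-type arrays. The excess of Hox5 mut replicate 1 over the other 5 arrays ran from 1.86 to 4.77 over the 5 tested mesenchyme markers. In all 3 lists Hox5 mut replicate 1 was the highest array for every tested gene, 8 endothelial, 5 pericyte and 5 mesenchymal, where 25.7% of all features were highest there.

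Blood markers summed to 72815, 2255 and 3082 on Hox5 mut arrays against 10568, 1483 and 1313 on wild-type arrays, with 9 of 10 detected and Gata1 on no array. Neural progenitor markers summed to 29399, 9935 and 10520 on Hox5 mut arrays against 14426, 9826 and 10791 on wild-type arrays, with 12 of 14 detected and Olig2 and Pax6 on none. Hox5 mut replicate 1 was the highest array for 9 of 12 tested, where 25.7% of all features were highest there. Wild-type replicate 1 ranked first of the other 5 for 16 matrix genes. Among wild-type arrays it was highest for the blood, progenitor, mesenchyme, pericyte, neural crest, cartilage and motor neuron sums. Another wild-type array was higher for the endothelial, floor plate, skeletal muscle and macrophage sums. Floor plate markers summed to 3922, 1669 and 638 on Hox5 mut arrays against 1670, 546 and 1778 on wild-type arrays, with all 5 detected. Motor neuron markers went the other way, at 2110, 6389 and 3528 on Hox5 mut arrays against 5354, 5245 and 4981 on wild-type arrays. Hox5 mut replicate 1 was the lowest array for 8 of 12 tested, where 35.7% of all features were lowest there. Neural crest and Schwann cell markers summed to 12240, 7503 and 7227 on Hox5 mut arrays against 9394, 7456 and 7926 on wild-type arrays, with 7 of 8 detected and Erbb3 on none. Here Hox5 mut replicate 1 was the highest array for 3 of 7 tested and the lowest for 2. The shares over all features were 25.7% and 35.7%. The median excess of that array over the other 5 was 0.060, with a range of −1.79 to 2.70. Fabp7 is on both this list and the neural progenitor list.

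Cartilage markers other than the collagens were mostly not detected. Of these 3 of 8 were detected on some array, Acan, Cnmd, Hapln1, Matn1 and Matn3 were detected on none, and the 2 tested, Sox5 and Sox6, summed to 1171, 555 and 532 on Hox5 mut arrays against 655, 395 and 479 on wild-type arrays. For skeletal muscle 5 of 12 were detected, with Actc1, Myf5, Myf6, Myl1, Myod1, Pax3 and Pax7 on no array and sums of 295, 273 and 256 on Hox5 mut arrays against 258, 253 and 285 on wild-type arrays. Macrophage markers were detected for 9 of 11 genes, without Fcgr1 and Ptprc, and the 1 tested, Cx3cr1, stood at 71, 40 and 27 on Hox5 mut arrays against 34, 37 and 22 on wild-type arrays.

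**Figure D5:**
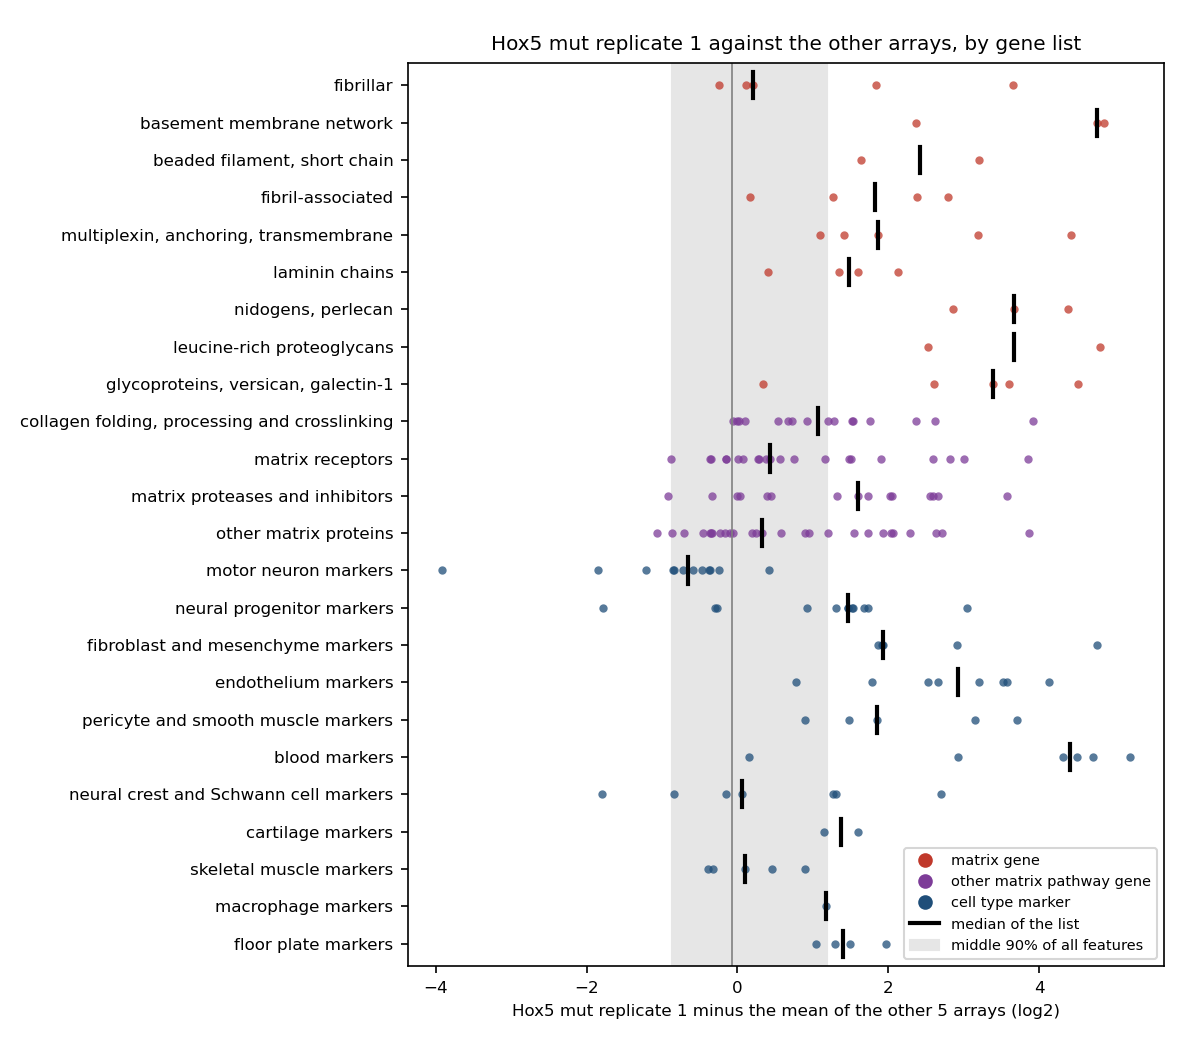
Hox5 mut replicate 1 minus the mean of the other 5 arrays on the log2 scale, 1 point per tested gene, for the matrix genes by role, 4 other matrix lists and 11 marker lists, with list medians as bars and the middle 90% of all features in grey. Medians reach 4.76 for basement membrane network collagens and 4.41 for blood markers, and −0.66 for motor neuron markers.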

How the data were processed

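RNA of the 6 samples was amplified with an Illumina TotalPrep kit, biotin-labelled and read on 1 Illumina bead array each, per the labels' protocols. The deposited table holds, per the file headers, a linear intensity and a detection p-value for every probe on every array. No source used here names the scanner software or a background subtraction before deposit. A second deposited table holds intensities normalized by the authors, which quantile normalization of the first gave within 1.43% for every probe.

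The deposited intensities were then background-corrected by normexp (limma 3.58.1, R 4.3.3, offset 16), the detection p-values standing in for negative controls, and were quantile normalized on the log2 scale. Probes with a detection p under 0.05 on at least 3 of 6 arrays were kept, 19735 of 45281, and a gene was represented by its brightest kept probe, giving 13638 features. Gene symbols came from the platform annotation (34885 probes with 1 symbol, 18 with several, 10378 unnamed here), of which 34807 matched RefSeq genes of GRCm38.p6 and 0 symbols changed. Promoter windows were from RefSeq of the same build.

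Groups were compared with lmFit and eBayes with no covariate, with Benjamini-Hochberg adjustment across the full set of features. The test was checked on simulated data. Unmatched sample columns numbered 0. The members, gene lists and tests were chosen with earlier results of these data known. Genes with values on every array were, in each role, the 3 with the smallest p, a set of landmark genes, and tested members for which Hox5 mut replicate 1 was not the highest array. Untested members given with values, and Col22a1, Col23a1, Col7a1, Loxl1 and Mfap2, were chosen after their values were seen. Of the 4 pathway lists the 2 with the smallest p in each direction were named. Alternatives changed the background correction, normalization, filter, probe choice, variance model, array weights, replicate block and arrays used. Array number limits the precision.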

Additional observations from a re-analysis of the deposited data

How the results depend on the processing

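No matrix gene passed under any alternative, and of all features 0 passed except 1 with Hox5 mut replicate 3 left out. Each of the 33 gene differences kept its direction with median scaling, cyclic loess, no background correction, an offset of 50 and the authors' normalized values. The same held with the mean over kept probes and with no filter, and for the 23 genes left by detection on all 6 arrays. An intensity trend with robust variance cannot change a difference, so it was no check of direction. With every probe on its own, 44 of 50 kept matrix probes were above 0 and 6 below. The median of the matrix genes ran from 0.36 to 0.61 in these settings. Features with an unadjusted p under 0.05 numbered 250, against 160 with no background correction, 162 with the authors' values, 161 with detection on all 6 arrays, 829 with no filter, 581 with array weights, 379 with the replicate block, and 151 without wild-type replicate 2 to 448 without Hox5 mut replicate 3, and matrix genes 1, against 0 to 2. In the 2 alternatives chosen after seeing the data, described last, 5 of 64 and 4 of 33 matrix genes had such a p, where 982 of 29453 and 515 of 13638 features did. The replicate block, with the replicate number as a term, called 0 matrix genes (smallest limma adjusted p 0.955). With every replicate number present in both groups, the block cannot change a difference. Same-numbered arrays correlated at 0.32, 0.0133 and 0.104 in their deviations from the group means. Differently numbered arrays were not compared in this way, so whether the numbers pair the samples stays undecided. The block changed no call. Array weights gave Hox5 mut replicate 1 a weight of 0.256, the others 0.85 to 2.31, and left 19 of 33 genes above 0 with a median of 0.10. They turned the sign of 13 genes: 0.00026 for Col11a2, −0.017 for Col18a1, −0.19 for Col22a1, −0.082 for Col23a1, −0.077 for Col26a1, −0.13 for Col2a1, −0.25 for Col4a1, −0.38 for Col4a5, −0.11 for Col9a2, −0.15 for Lamc1, −0.068 for Nid1, −0.099 for Nid2, −0.069 for Sparc. With each array left out in turn, the features passing ran from 0 to 1, the matrix genes passing stayed at 0 and the median of the matrix genes ran from −0.17 without Hox5 mut replicate 1 to 0.97 without replicate 2 and 1.09 without replicate 3 of that group. Leaving out Hox5 mut replicate 1 turned the sign of 24 genes, and their differences over the 6 such fits ran from −0.45 to 2.31 for Bgn, −0.34 to 1.41 for Col18a1, −0.67 to 1.11 for Col22a1, −0.56 to 1.82 for Col23a1, −0.086 to 0.95 for Col26a1, −0.36 to 0.72 for Col2a1, −0.70 to 2.07 for Col4a1, −0.096 to 2.64 for Col4a2, −0.55 to 0.86 for Col4a5, −0.22 to 1.69 for Col5a1, −0.13 to 0.82 for Col7a1, −0.10 to 1.67 for Col8a2, −0.33 to 0.54 for Col9a2, −0.35 to 1.44 for Dcn, −0.17 to 1.84 for Fbln1, −0.12 to 1.75 for Fbln2, −0.041 to 1.50 for Hspg2, −0.070 to 0.66 for Lama1, −0.082 to 0.78 for Lamb2, −0.22 to 0.97 for Lamc1, −0.25 to 2.28 for Lgals1, −0.41 to 1.95 for Nid1, −0.22 to 1.71 for Nid2, −0.36 to 1.09 for Sparc. The value for Col23a1 without Hox5 mut replicate 1 rests on background, since neither remaining array of that group detected it. The range was −0.25 to 0.063 for Col11a2, which turned without wild-type replicate 1 or 2, and −0.15 to 0.27 for Vcan, which turned without wild-type replicate 3. The alternatives that left out Hox5 mut replicate 1 together with the filter, or both replicates numbered 1, were chosen after seeing the data. A slide block was not run, since no source used here gives the slides. Signal over background limits what can be seen for the dim members, 63 of whose 154 probes were detected on no array.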
